A study of Mus musculus with 6 samples.

Results

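The cytosolic ribosomal protein genes of mouse DRG/tumors were examined in bulk RNA-seq libraries from 6 mice. The members were chosen by symbol, as every gene named Rpl or Rps with a number (and any closing letters), plus Rplp0, Rplp1, Rplp2 and Rpsa, with the Rps6k kinases and rows marked as pseudogenes removed. This rule matched 87 of the 24062 genes in the count files, 52 of the large subunit, 34 of the small subunit and Rps19bp1. Rps19bp1 encodes a protein that binds Rps19 and is no ribosomal protein, but it matched the rule and was kept in every count below. The group was picked for its difference between the genotypes, with results of the same libraries known, so the difference is described here. Calls of the fit across all genes are counted for the members as a description, and nothing is read from them as a test.

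The 3 control libraries came from Nf1fl/fl;DhhCre mice, in which Cre driven by the Dhh promoter removes Nf1 in the Schwann cell (SC) lineage and other cells of the tissue keep it. The other 3, called double knockout, came from Rx1fl/fl;Rx3fl/fl;Nf1fl/fl;DhhCre mice, which lose Nf1 in the same lineage and Runx1 and Runx3 as well. The genotype label of the double-knockout samples leaves out Nf1fl/fl, which the extraction protocol gives. The labels name the tissue dorsal root ganglion (DRG) in one genotype and neurofibroma tumor in the other, on a C57BL/6-I129 background, and give no age. The tissue label thus follows the genotype, and tissue and genotype cannot be told apart in any difference described below.

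Each cytosolic ribosome is built from a small subunit, which reads the mRNA, and a large subunit, which forms the peptide bonds, and nearly all of their proteins are present once per ribosome. The genes for these proteins are transcribed in step with each other. Their mRNAs are known for a run of pyrimidines directly at the 5′ end (the 5′ terminal oligopyrimidine or TOP tract), through which their translation follows mTORC1 signalling. Loss of Nf1 raises Ras signalling, and mTORC1 is one of the pathways downstream of Ras.

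The start sites annotated by RefSeq on GRCm38.p6 show this tract for some members and not for others. A tract was counted where the annotated first base was C and at least 4 further bases followed without a break, each C or T. It was found at an annotated start of 14 of the 66 members with a RefSeq window (21.2%), against 3.01% of all 27025 genes with such a window. In this paragraph and the next, all genes means these 27025. The following windows hold 10 bases before and 20 bases from the annotated start, with the tract in capitals. The first 5 are members with a tract, and the last 3 are members without one at that base, shown because their fold changes lie toward the lower end of the range.
Rps6: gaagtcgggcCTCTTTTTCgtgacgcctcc
Rps15a: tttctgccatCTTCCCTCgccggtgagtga
Rplp2: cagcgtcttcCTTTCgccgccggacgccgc
Rpl15: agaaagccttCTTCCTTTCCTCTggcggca
Rps18: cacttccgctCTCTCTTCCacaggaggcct
Rps16: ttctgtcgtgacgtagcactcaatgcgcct
Rps12: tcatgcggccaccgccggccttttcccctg
Rplp0: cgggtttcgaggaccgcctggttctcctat
The windows lie at chr4:86857348-86857377 on the minus strand (Rps6), chr7:118116128-118116157 on the minus strand (Rps15a), chr7:141447641-141447670 on the plus strand (Rplp2) and chr14:18270967-18270996 on the minus strand (Rpl15). Those of Rps18, Rps16, Rps12 and Rplp0 lie at chr17:33955646-33955675 (minus), chr7:28350679-28350708 (plus), chr10:23787190-23787219 (minus) and chr5:115559457-115559486 (plus). The tract was 9 bases long in Rps6, 13 in Rpl15 and 5 in Rplp2. When the tract could begin up to 5 bases to either side of the annotated start, 45.5% of members had one, against 21.2% of all genes.

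The motif TGTGG, the core that RUNX factors bind, was looked for on both strands of the 300-base windows from 250 bases before to 50 bases from each start. It was present for 33 of the 66 members and for 59.6% of all genes. TATAAA was present for 10.6% of members and 15.7% of all genes, GGGCGG for 62.1% of members and 38.2% of all genes, and CCAAT for 30.3% of members and 41.1% of all genes, each on either strand. These shares describe letters in the windows only.

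The depth of the libraries ranged from 12439296 to 16682194 counts, and levels are given as CPM, counts scaled to a common library total with TMM factors. Before the TMM factor, 3 counts corresponded to between 0.180 and 0.241 CPM. Of the targeted genes, Runx3 was at 19.9, 15.1 and 29.9 CPM in Nf1fl/fl;DhhCre and at 13.6, 10.3 and 12.2 CPM in double knockout (a log2 fold change of -0.79 with an SE of 0.30, adjusted p = 0.104 in limma-voom with Benjamini-Hochberg adjustment). Runx1 was at 131, 141 and 172 CPM against 84.0, 78.9 and 185 CPM (log2 fold change -0.44, SE 0.32, adjusted p = 0.370 by limma-voom). The library labelled double-knockout replicate 3 thus had the highest value. Cells outside the SC lineage keep Runx1, so this bulk value does not settle whether the label is right. Skeletal muscle genes (12 of 12 measured) summed to 3649 CPM in Nf1fl/fl;DhhCre replicate 2 and 14220 CPM in double-knockout replicate 2, and to between 12.4 and 99.8 CPM in the others. The Y-linked initiation factor gene Eif2s3y was at 0 CPM in Nf1fl/fl;DhhCre replicates 1 and 3 and double-knockout replicate 1, and at 36.3, 58.7 and 40.3 CPM in the others. One double-knockout library, replicate 2 or 3, came from another sequencing run.

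Some lists of cell type markers also moved with genotype, and their part in the results below was not tested. Of all genes that passed the filter on low counts, 8.22% were called lower and 11.1% higher. All 12 macrophage markers were detected in every library and summed to 1183 to 2684 CPM in Nf1fl/fl;DhhCre and 181 to 450 CPM in double knockout, with 10 called lower. The 10 fibroblast markers summed to 12090 to 13400 CPM against 3865 to 6774 CPM, with 7 called lower. The 23 sensory neuron markers summed to 1900 to 3317 CPM against 7456 to 15820 CPM, with 21 called higher, and the 16 myelinating SC markers to 6188 to 7411 CPM against 12600 to 16390 CPM, with 13 called higher and 1 lower. Of the 13 general SC markers, 2 were called higher and 1 lower (median log2 fold change -0.12). Of the 7 satellite glia markers, 1 was called higher and 1 lower (median -0.07). Of the 10 endothelial and 8 T cell markers that passed the filter, 0 were called in limma-voom, with medians of 0.52 and -1.13. In bulk RNA, fewer cells of a type and less of an RNA in each cell cannot be told apart.

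The ribosomal protein genes took a smaller share of the counts in double knockout. They held 0.562%, 0.590% and 0.663% of all counts in Nf1fl/fl;DhhCre replicates 1, 2 and 3 and 0.460%, 0.433% and 0.433% in the double-knockout replicates. The double-knockout values lay close together and below every control value. The group shares were 0.605% ± 0.0520 (SD, n = 3) and 0.442% ± 0.0157 (SD, n = 3), a difference of -0.163 percentage points. In CPM the members summed to 5416, 5867 and 6414 in Nf1fl/fl;DhhCre and to 4565, 4567 and 4508 in double knockout. These shares rest on between 55536 and 99989 counts per library. The difference was between -0.184 and -0.134 percentage points when each library was left out, and -0.166 without both libraries with muscle genes.

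**Figure D1:**
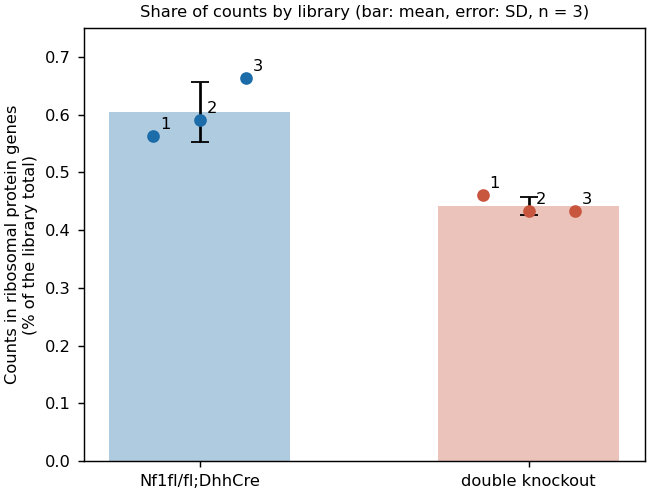
Percent of each library's counts assigned to the 87 ribosomal protein genes, by genotype. Points are libraries with their replicate number, bars the means and error bars the SD of 3 libraries. The double-knockout libraries sit between 0.433% and 0.460% and the controls between 0.562% and 0.663%.

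Of the 87 members, 78 passed the filter on low counts and 9 did not, with 15652 genes kept in all. The 9 that did not pass are described further on. Among the 78 kept, 76 had a fitted log2 fold change below 0 and 2 had one above 0, where 48.9% of all kept genes were below 0. The median log2 fold change of the members was -0.35, which is 21.3% lower in double knockout, and that of all kept genes was 0.02. The members' values ranged from -0.68 to 0.39, with standard errors from 0.11 to 0.42 (median 0.16).

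For 51 of the 78 (65.4%), all 3 double-knockout libraries lay below all 3 controls, a pattern found in 20.5% of all kept genes. The opposite pattern was found in 0 members and in 21.8% of all kept genes, and the other 27 members overlapped. At the FDR of 0.05 in limma-voom, 16 members (20.5%) were called lower, beside 8.22% of all kept genes called lower. None was called higher (0 members, with 0 at an unadjusted p under 0.05 and 0 in edgeR or DESeq2), beside 11.1% of all kept genes. The count of 16 was 15 in edgeR and 26 in DESeq2. In limma-voom 0 members were DEGs, as in edgeR and DESeq2, and 0 passed 2-fold at an unadjusted p under 0.05, beside 13.4% of all kept genes that were DEGs. These counts come from the contrast for which the genes were picked and are given as a description.

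The count called lower depended on single libraries while the direction moved little. It was 2, 0 and 3 without double-knockout replicates 1, 2 and 3 in turn, 0, 5 and 0 without Nf1fl/fl;DhhCre replicates 1, 2 and 3, and 0 without both libraries with muscle genes. In these 7 fits between 72 of 79 and 78 of 79 members were below 0. The median log2 fold change over the fits without 1 library ranged from -0.40 to -0.27, and 71 of the 78 members were below 0 in all 16 settings. When the members themselves were left out of the scaling, 76 of 78 were still below 0. With library size only, the median of all genes shifted to -0.06 and that of the members to -0.42.

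**Figure D2:**
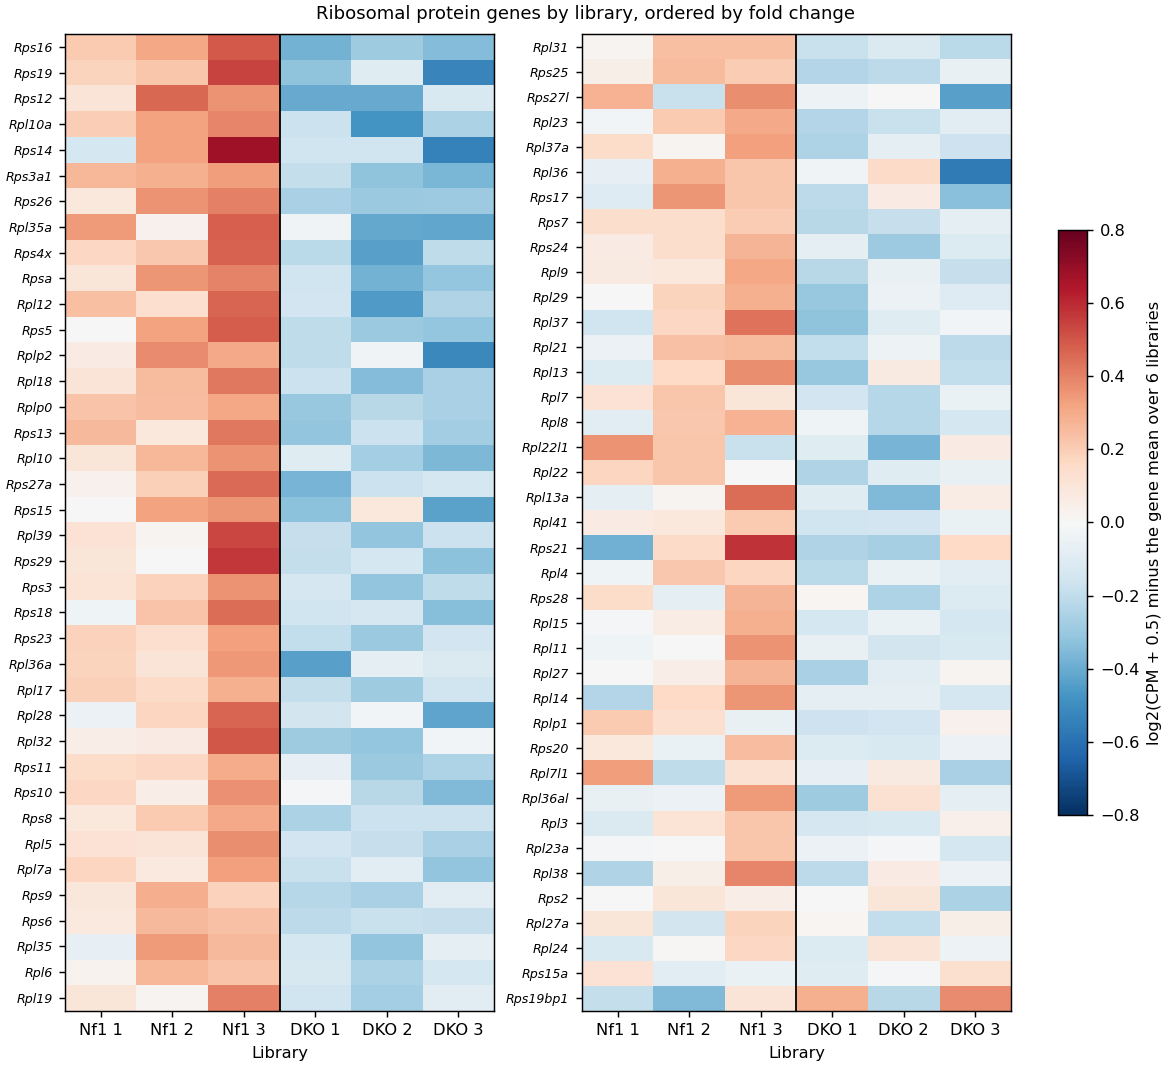
Deviation of 77 kept ribosomal protein genes from the gene's own mean over the 6 libraries, as log2(CPM + 0.5), with genes ordered by fitted log2 fold change. Red is above and blue below the gene's mean, Nf1 and DKO are the Nf1fl/fl;DhhCre and double-knockout libraries. Replicate 3 of Nf1fl/fl;DhhCre holds the highest value for 58 of these genes.

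The members moved together across libraries within a genotype as well. The median deviation of the 78 genes from their own means was 0.08, 0.16 and 0.33 on the log2 scale in Nf1fl/fl;DhhCre replicates 1, 2 and 3. It was -0.18, -0.17 and -0.16 in the double-knockout libraries. Nf1fl/fl;DhhCre replicate 3 had the highest of the 6 values for 59 members, and replicate 1 had the lowest of the 3 controls for 53. The double-knockout libraries showed no such order, with the lowest of the 6 values in 24, 25 and 24 members. The macrophage markers summed to 1841, 1183 and 2684 CPM in Nf1fl/fl;DhhCre replicates 1, 2 and 3, where the members summed to 5416, 5867 and 6414 CPM. Replicate 3 was the highest control in both sums. The lowest control was replicate 2 for the macrophage markers and replicate 1 for the members. A link between these sums was not tested.

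The members are given next by subunit, beside the shares of all kept genes that lay lower without overlap (20.5%) or were called lower (8.22%). Of 31 kept small subunit members, 30 were below 0, 23 did not overlap between genotypes and 10 were called lower, with a median log2 fold change of -0.43. Of 46 kept large subunit members, 46 were below 0, 28 did not overlap and 6 were called lower, with a median of -0.31. The difference between the subunits was not tested.

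The 5 members with the lowest fold changes held 4 of the small subunit. Rps16 (ENSMUSG00000037563.15, chromosome 7, 28350652 to 28353155), a small subunit protein near the tRNA sites, was at 36.5, 39.3 and 44.6 CPM in Nf1fl/fl;DhhCre and at 24.2, 25.9 and 24.8 CPM in double knockout. The double-knockout values were within 2 CPM of each other and the log2 fold change was -0.68 (SE 0.15). Rps19 (chromosome 7, 24884371 to 24889806), needed for assembly of the small subunit and mutated in Diamond-Blackfan anemia, was at 31.1, 32.1 and 40.1 CPM against 21.8, 25.7 and 18.9 CPM (-0.65, SE 0.19). For both genes every double-knockout library was below every control. Rps12 (chromosome 10, 23785183 to 23787275) was at 49.0, 63.0 and 58.8 CPM against 34.4, 34.5 and 42.0 CPM (-0.62, SE 0.16).

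Rpl10a (chromosome 17, 28328471 to 28331033), a large subunit protein, was at 176, 191 and 201 CPM in Nf1fl/fl;DhhCre and 136, 110 and 128 CPM in double knockout (log2 fold change -0.61, SE 0.13). Rps14 was at 13.5, 18.8 and 24.1 CPM against 13.3, 13.3 and 10.1 CPM (-0.61, SE 0.27). The groups did not overlap for either gene, but for Rps14 the lowest control lay within 1 CPM of the highest double-knockout library.

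At the other end of the range stood members whose genotypes overlapped. Rps15a (chromosome 7, 118104372 to 118116188), of the small subunit and with a TOP tract in the window above, was at 107, 93.4 and 95.1 CPM in Nf1fl/fl;DhhCre and at 92.3, 98.2 and 108 CPM in double knockout (log2 fold change 0.02, SE 0.13). Its sign changed between the fits that left out 1 library, and the value was -0.06 with library size only. Rpl24 (chromosome 16, 55966275 to 55971435), which lies at the face of the large subunit toward the small one, was at 24.3, 26.8 and 29.9 CPM against 24.6, 28.5 and 25.8 CPM (-0.04, SE 0.16). Rpl27a was at 46.8, 39.5 and 49.4 CPM against 44.3, 38.2 and 45.3 CPM (-0.08, SE 0.15). Rps2 was at 48.9, 52.4 and 50.8 CPM against 49.0, 52.2 and 41.0 CPM (-0.11, SE 0.14). For these 4 genes the change is under 1 SE and its interval holds 0. Rps19bp1, the binding protein, was at 1.53, 1.31 and 1.99 CPM against 2.31, 1.48 and 2.51 CPM and had the highest log2 fold change of the 78 (0.39, SE 0.42), which is also under 1 SE, with overlapping groups.

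**Figure D3:**
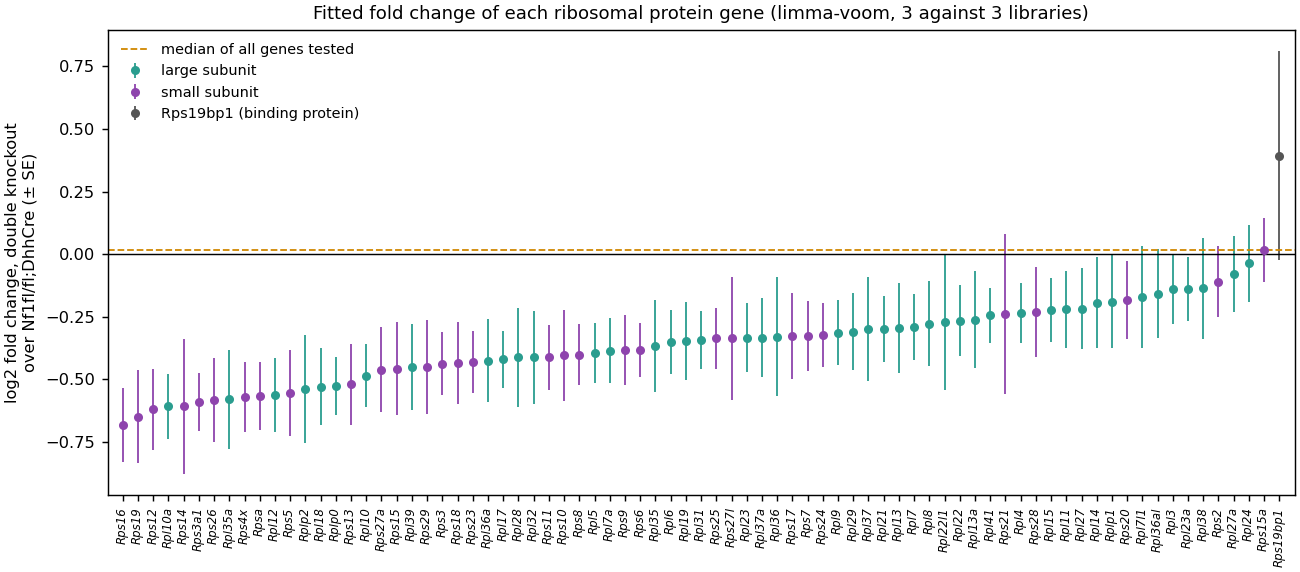
Fitted log2 fold change of double knockout over Nf1fl/fl;DhhCre for 77 of the 78 kept members, from limma-voom on 3 against 3 libraries, with standard errors as bars. Colors mark large subunit, small subunit and the binding protein Rps19bp1, and the dashed line is the median of all genes tested (0.02). Values run from -0.68 for Rps16 to 0.39 for Rps19bp1.

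The acidic stalk of the large subunit, which recruits the elongation factors, is made of Rplp0, Rplp1 and Rplp2. Rplp0 (chromosome 5, 115559467 to 115563727) was at 72.9, 73.6 and 77.0 CPM in Nf1fl/fl;DhhCre and 50.3, 53.1 and 51.8 CPM in double knockout, with a wide gap between the genotypes (log2 fold change -0.53, SE 0.12). Rplp2 was at 12.3, 15.4 and 14.6 CPM against 10.1, 11.5 and 8.05 CPM (-0.54, SE 0.22). Rplp1 was at 14.3, 13.6 and 11.8 CPM against 10.9, 11.0 and 12.6 CPM (-0.19, SE 0.19), and its groups overlapped.

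Rpsa, a small subunit protein also known as the laminin receptor, was at 126, 150 and 155 CPM in Nf1fl/fl;DhhCre and 105, 90.4 and 94.9 CPM in double knockout (log2 fold change -0.57, SE 0.14). Rps6, the small subunit protein that S6 kinase phosphorylates downstream of mTORC1, was at 204, 232 and 227 CPM against 167, 171 and 170 CPM (-0.38, SE 0.11). Rps27a, made as a fusion to ubiquitin, was at 31.8, 35.5 and 42.7 CPM against 23.9, 27.5 and 28.1 CPM (-0.46, SE 0.17). In all 3 genes every double-knockout library was below every control.

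Rpl5 and Rpl11 form a particle with the 5S rRNA that, when free, binds MDM2 and so raises p53. Rpl5 was at 304, 300.5 and 363 CPM in Nf1fl/fl;DhhCre and 252, 247 and 234 CPM in double knockout (log2 fold change -0.39, SE 0.12). Rpl11 was at 46.5, 47.7 and 61.4 CPM against 45.7, 43.1 and 43.8 CPM (-0.22, SE 0.16), with less than 1 CPM between the lowest control and the highest double-knockout library.

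The kept members were spread over 19 chromosomes, with 14 on chromosome 7 and 4 on the X. The X-linked members were Rps4x (log2 fold change -0.57, SE 0.14), Rpl10 (-0.48, SE 0.13), Rpl39 (-0.45, SE 0.17) and Rpl36a (-0.42, SE 0.17). Rpl10, which completes the large subunit late in its assembly, was at 319, 359 and 383 CPM in Nf1fl/fl;DhhCre and 279, 248 and 232 CPM in double knockout. All 4 were below the controls in every double-knockout library, a pattern found in 20.5% of all kept genes. Counts of Eif2s3y were present in 1 control and 2 double-knockout libraries, and the part of sex in these values was not tested.

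The composition of the pool of members was described by each gene's part of it. As a share of the pooled counts, Rpl10 held 5.99% ± 0.120 (SD, n = 3) in Nf1fl/fl;DhhCre and 5.56% ± 0.496 in double knockout, and Rpl5 held 5.47% ± 0.299 and 5.38% ± 0.167. Rps15a held 1.69% ± 0.262 and 2.19% ± 0.192, and Rpl3 1.73% ± 0.0704 and 2.03% ± 0.156. Rps16 held 0.680% ± 0.0132 and 0.549% ± 0.0183. Rps15a, Rpl3 and Rps16 are shown because their shares did not overlap. Over the 78 kept members, 60 had overlapping shares, 10 were higher and 8 lower in every double-knockout library, and nothing is read from this tally because the pool holds members only and gives no share over all genes.

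Levels were compared between genes as CPM per kilobase of the reference transcript. The kept members ranged from 2.21 CPM per kilobase on average for Rps19bp1 to 380 for Rpl10, with a median of 59.1 and quartiles of 39.7 and 108. In Nf1fl/fl;DhhCre Rpl10 was at 443, Rpl31 at 311 and Rpl41 at 289 CPM per kilobase, and in double knockout at 317, 245 and 244. Rps20 was at 6.65 and 5.82 CPM per kilobase on a reference transcript of 3706 bases.

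Ribosomal protein genes have many near-identical pseudogenes, so a read can match several places and the count of one row can be uncertain. For each member the share of the 50-base words of its reference transcript (GENCODE M21) that occur in another annotated gene was computed. It ranged from 0 to 95.1% among the kept members, with a median of 60.6%. How the authors' counting treated such reads is not given in the sources used here. The 47 members with more than 50% shared had a median log2 fold change of -0.35, with 47 below 0. The other 31 had a median of -0.34, with 29 below 0. Across the 78 members, Spearman's rho of the log2 fold change was -0.05 with this share, -0.13 with the mean log2 CPM and -0.13 with coding length, where the genes share libraries and are no independent replicates.

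Of the 9 members that did not pass the filter, Rpl26 and Rps27rt, a retrotransposed copy, had 0 counts in every library, and so did Rpl10l. Rpl26 and its fellows Rpl34, Rps27 and Rpl30 encode proteins that every ribosome needs. Rpl34 had between 0 and 2 counts, Rps27 between 0 and 3 and Rpl30 between 1 and 8. Their shared 50-base words were 71.3% for Rpl26, 48.9% for Rpl34, 98.6% for Rps27 and 76.4% for Rpl30. Rpl35, at 95.1% shared, was nevertheless counted, at 15.3 to 24.4 CPM. Values at 0 in these rows are therefore reported as listed and not as absent expression. Rps4l had between 3 and 15 counts and Rpl39l at most 1.

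Some members are paralogs that can stand in for a parent gene in certain tissues. Rpl3l, the form of Rpl3 made in striated muscle, had 3, 70 and 2 counts in Nf1fl/fl;DhhCre and 0, 73 and 0 in double knockout. The values of 70 and 73 fell in the same libraries that had the high muscle gene sums of 3649 and 14220 CPM. Rpl3 itself was at 89.3, 104 and 113 CPM against 88.2, 89.1 and 99.7 CPM, with overlapping groups. Rpl22l1 was counted at 17.2% of Rpl22 in Nf1fl/fl;DhhCre and 16.95% in double knockout (geometric means of counts, not scaled for length), a log2 ratio that differed by -0.02. Rpl7l1 stood at 47.4% and 51.7% of Rpl7, a difference of 0.12 with SDs of 0.34 and 0.26 (n = 3). Rpl36al stood at 164% and 198% of Rpl36a, a difference of 0.27 in the log2 ratio with SDs of 0.11 and 0.08 (n = 3), and the ratio was higher in every double-knockout library. No ratio could be formed for Rps27l and Rps27, because Rps27 was near 0. Rps27l, a p53-inducible form, was at 14.8, 10.6 and 15.8 CPM against 11.7, 12.1 and 8.78 CPM.

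Ribosomal protein mRNAs are short, with a median coding length of 468 bases (138 to 1257). The part of length in the result was not tested, and the values of other short genes are given beside it. Among 1569 other kept genes with a coding length up to 600 bases, 630 were below 0 and the median log2 fold change was 0.17. Among the 668 of these whose average log2 CPM reached 4, 238 were below 0 and the median was 0.21. Among the 53 members in this range, 51 were below 0 and the median was -0.34.

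**Figure D4:**
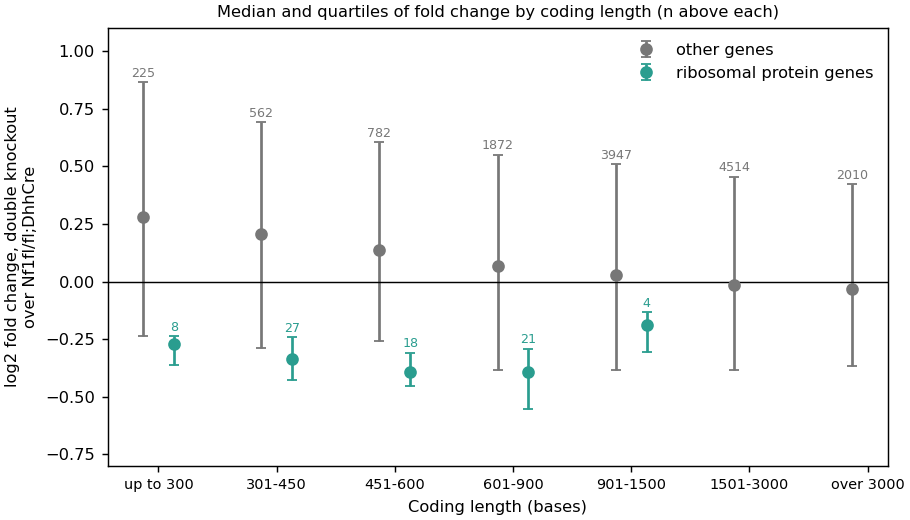
Median log2 fold change of double knockout over Nf1fl/fl;DhhCre by coding length in bases, for ribosomal protein genes and all other kept genes, with quartiles as bars and the number of genes above each. Other genes up to 300 bases have a median of 0.28 and those over 3000 bases -0.03, while the members lie between -0.40 and -0.19 in each class that holds any.

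Members with and without a TOP tract at the annotated start had medians close to each other, a difference that was not tested. The 12 kept members with a tract had a median log2 fold change of -0.37, with 11 below 0, and the 47 kept members with a window but no tract had a median of -0.34, with 46 below 0. The 12 with a tract spanned from -0.58 for Rpl35a to 0.02 for Rps15a.

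Gnb2l1 and Fau, ribosomal components whose symbols do not begin with Rp, were lower in each double-knockout library than in any control. Gnb2l1 (RACK1), a signalling scaffold on the small subunit, was at 81.6, 85.2 and 64.3 CPM in Nf1fl/fl;DhhCre and 41.7, 31.7 and 32.5 CPM in double knockout. It was a DEG (log2 fold change -1.13, SE 0.18, adjusted p = 0.0116 by limma-voom with Benjamini-Hochberg adjustment), and the adjusted p was 0.0557 without Nf1fl/fl;DhhCre replicate 1. Fau, a ubiquitin-like fusion to a small subunit protein, was at 22.7, 26.6 and 31.4 CPM against 19.8 to 20.99 CPM (-0.39, SE 0.18, adjusted p = 0.156 by limma-voom).

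Mitochondrial ribosomal proteins, which translate the few mRNAs of the mitochondrial genome, lay on the other side. Of the 77 genes, 69 had a log2 fold change above 0 and 8 below, with a median of 0.39, and 27 were higher in every double-knockout library, a pattern found in 21.8% of all kept genes. At the FDR of 0.05, Mrpl12 and Mrpl41 were called higher and Mrpl33 lower by limma-voom, which is 2 and 1 genes, beside 11.1% and 8.22% of all genes. Mrpl12 was at 2.57, 5.004 and 4.75 CPM against 13.8, 10.8 and 7.86 CPM (log2 fold change 1.37, SE 0.36, adjusted p = 0.0386 by limma-voom). Mrpl33 was at 16.9, 16.3 and 16.0 CPM against 9.96, 9.05 and 10.1 CPM (-0.75, SE 0.17, adjusted p = 0.0273 by limma-voom). The calls of Mrpl12 and Mrpl33 each held in 1 of the 6 fits without 1 library and that of Mrpl41 in 0. Mrpl17, the most abundant of them, was at 54.9, 50.9 and 60.4 CPM against 59.6, 70.9 and 53.5 CPM and overlapped. The count called higher was 7 with sample quality weights and 8 in DESeq2. It ranged from 0 to 5 without single libraries, and the median from 0.27 to 0.54. The 5 were without double-knockout replicate 3, and none was called higher without double-knockout replicate 2 or any one of the Nf1fl/fl;DhhCre replicates.

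The calls in the other translation lists are given beside the shares of all kept genes called higher (11.1%) and lower (8.22%). Of 12 genes listed with the elongation factors, 2 were called higher (Eef1a2 and Eif5a2) and 2 lower (Eef1a1 and Tpt1, which is not itself an elongation factor). The median was 0.03, and it was -0.05 with library size only, -0.06 without Nf1fl/fl;DhhCre replicate 1 and -0.03 without double-knockout replicate 2. Eef1a1, the main factor that brings tRNA to the ribosome and a known TOP mRNA, was at 918, 896 and 912 CPM in Nf1fl/fl;DhhCre and 648, 526 and 630 CPM in double knockout (a log2 fold change of -0.60 with an SE of 0.12, adjusted p = 0.0172 by limma-voom). Tpt1, another TOP mRNA, was at 421, 430 and 459 CPM against 332, 360 and 290 CPM (-0.42, SE 0.12, adjusted p = 0.0483 by limma-voom). Eef1a2, the form that replaces Eef1a1 in neurons and muscle, was at 5.41, 14.8 and 5.07 CPM against 18.1, 52.9 and 40.5 CPM (2.17, SE 0.56, adjusted p = 0.0372 by limma-voom). The call of Eef1a1 was lost without Nf1fl/fl;DhhCre replicate 1 or 3, and its highest adjusted p in limma-voom over the fits without 1 library was 0.0642. That of Tpt1 was lost without any one library, up to 0.212. Eef1a2 was highest in double-knockout replicate 2, a library with muscle genes, and its adjusted p in limma-voom reached 0.130 over the fits without 1 library.

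Of 46 kept genes listed with the initiation factors, 0 were called higher and 2 lower at the FDR in limma-voom, with a median of 0.04. In edgeR and in DESeq2 0 were called higher as well, and 1 was higher at an unadjusted p under 0.05. The 2 called lower were Eif2ak2, the kinase PKR that is induced by interferon (log2 fold change -1.02, SE 0.24, adjusted p = 0.0283 by limma-voom), and Pabpc1, the poly(A)-binding protein (-0.66, SE 0.14, adjusted p = 0.0219 by limma-voom). Pabpc1 was at 1122, 1043 and 977 CPM against 770, 670 and 563 CPM. Eif4g2, the most abundant, was at 1084, 991 and 1073 CPM against 1142, 1147 and 1134 CPM (0.12, SE 0.10, adjusted p = 0.409 by limma-voom). Of 81 ribosome biogenesis factor genes, which process rRNA and assemble the subunits, 1 was called higher and 1 lower, with 39 above 0 and 42 below (median -0.02). Nop10, of the H/ACA snoRNPs, was higher (1.02, SE 0.23, adjusted p = 0.0266 by limma-voom) and the nucleolar helicase Ddx21 was lower (-0.58, SE 0.14, adjusted p = 0.0336 by limma-voom). Rrp15, with the lowest value of the list, was at 5.76, 3.69 and 6.54 CPM against 2.07, 3.12 and 3.50 CPM (-0.83, SE 0.38, adjusted p = 0.162 by limma-voom). Nucleolin (Ncl) was at 376, 381 and 333 CPM against 300.4, 320.5 and 342 CPM, with overlapping groups. Calls of Eif2ak2, Pabpc1, Nop10 and Ddx21 were each lost in at least 4 of the 6 fits without 1 library.

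Genes that host snoRNAs in their introns, many of them TOP transcripts, numbered 9 kept, of which 7 were below 0, 2 (Snhg5 and Snhg18) were called lower and 0 higher in limma-voom (median -0.40). In edgeR and in DESeq2 0 were called higher, and 1 was at an unadjusted p under 0.05. Snhg18 was at 27.9, 26.7 and 26.9 CPM against 16.7, 13.5 and 17.2 CPM (log2 fold change -0.78, SE 0.16, adjusted p = 0.0212 by limma-voom). Snhg3, with the highest value of the list, was at 3.88, 4.11 and 4.55 CPM against 8.21, 4.69 and 9.04 CPM (0.77, SE 0.33, adjusted p = 0.141 by limma-voom), above the controls in every double-knockout library. Gas5, the most abundant, was at 216, 248 and 254 CPM against 213, 192 and 222 CPM (-0.20, SE 0.12, adjusted p = 0.290 by limma-voom), with overlapping groups. Without single libraries the median of this list ranged from -0.57 to -0.24, and the call of Snhg18 held in 3 of those 6 fits and that of Snhg5 in 0.

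Of 39 genes of mTORC1 and of the control of TOP mRNAs, 5 were called higher and 1 lower, beside 11.1% and 8.22% of all kept genes, with a median of 0.08. Deptor, an inhibitor within the mTOR complexes, was at 247, 315 and 263 CPM in Nf1fl/fl;DhhCre and 451, 797 and 472 CPM in double knockout (a log2 fold change of 1.01 with an SE of 0.23, adjusted p = 0.0266 by limma-voom). Mlst8, Rraga, Rragb and Larp4 were called higher as well, and the kinase gene Rps6ka1 lower (-1.54, SE 0.41, adjusted p = 0.0388 by limma-voom). The call of Rps6ka1 held in 1 of the 6 fits without 1 library, with an adjusted p in limma-voom up to 0.113, and that of Deptor in 4. The calls of Mlst8, Rraga and Rragb each held in 1 and that of Larp4 in 0. The Rag GTPases Rraga and Rragb carry the amino acid signal to mTORC1. Rragd was at 11.9, 47.8 and 9.17 CPM against 41.8, 130 and 87.7 CPM (2.14, SE 0.65, adjusted p = 0.0589 by limma-voom), highest in each genotype in the library with muscle genes. The count called higher was 3 with library size only or with every gene with a count, and 7 in DESeq2. It was between 0 and 4 without single libraries, 0 of them without Nf1fl/fl;DhhCre replicate 1, 4 without double-knockout replicate 1, and 1 or 2 without each of the others.

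Of 13 kept genes on the arm from Rpl5 and Rpl11 through MDM2 to p53, 12 were below 0, 3 were called lower and 0 higher in limma-voom (median -0.53), with 0 higher in edgeR, in DESeq2 or at an unadjusted p under 0.05. Of all kept genes 48.9% were below 0, 8.22% were called lower and 11.1% higher. The genes called lower were Trp53 itself, at 72.9, 67.8 and 80.5 CPM against 45.7, 35.2 and 55.9 CPM (log2 fold change -0.71, SE 0.19, adjusted p = 0.0394 by limma-voom), Mdm4, which inhibits p53 (-0.53, SE 0.13, adjusted p = 0.0306 by limma-voom), and Eda2r. Eda2r, a p53 target and receptor of the TNF family, was at 33.4, 29.6 and 32.5 CPM against 8.53, 7.57 and 5.94 CPM (-2.14, SE 0.20, adjusted p = 0.00598 by limma-voom). It remained called in all 6 fits without 1 library. Pmaip1, which encodes the p53 target NOXA, had the lowest value of the list, at 4.44, 1.37 and 14.6 CPM against 0.398, 0.493 and 1.25 CPM (-2.67, SE 1.41, adjusted p = 0.220 by limma-voom). Sesn1 had the one value above 0, at 88.2, 101 and 92.0 CPM against 121, 88.8 and 93.5 CPM (0.10, SE 0.15, adjusted p = 0.696 by limma-voom), with overlapping groups. Ccng1, the most abundant, was at 336, 416 and 323 CPM against 245, 646 and 224 CPM and overlapped, with both highest values in the libraries with muscle genes. Trp53 was called in 2 of the fits without 1 library and Mdm4 in 1.

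**Figure D5:**
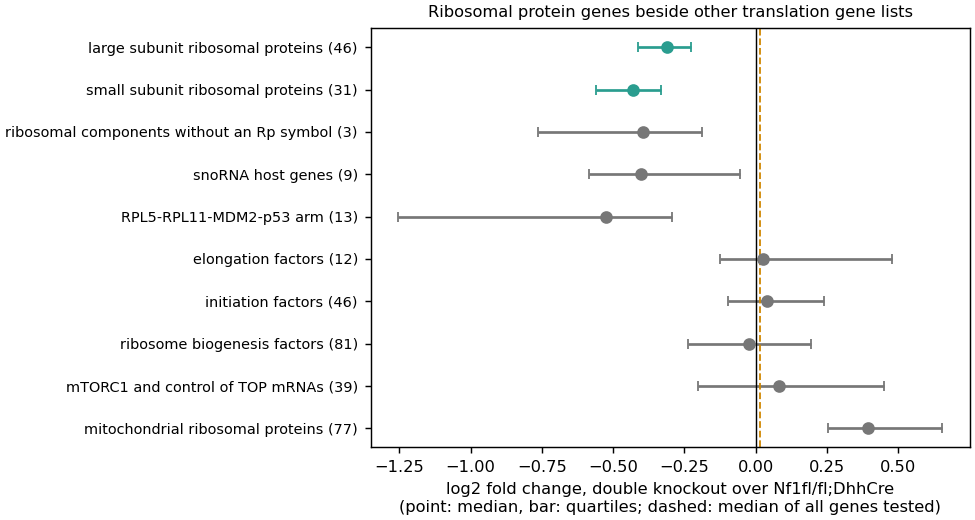
Median (point) and quartiles (bar) of the log2 fold change of double knockout over Nf1fl/fl;DhhCre for the ribosomal protein genes of each subunit and for other translation gene lists, with the number of kept genes in parentheses. The dashed line is the median of all genes tested. Small and large subunit members have medians of -0.43 and -0.31, mitochondrial ribosomal proteins 0.39.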

How the data were processed

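Bulk RNA-seq was available for 3 Nf1fl/fl;DhhCre and 3 double-knockout libraries. Per the labels and the study's methods, RNA was amplified with the NuGEN Ovation system, libraries were made with Nextera XT, and reads were aligned to mm10 with TopHat. The deposited counts are whole numbers of reads per gene that the authors obtained with featureCounts, without normalization. The annotation, the strand setting and what was done with multiply aligned reads are not given in the sources used here. Some titles and deposited files name different mice of one genotype, so the genotype is clear and the sequencing run is not. Replicates were numbered in label order, which pairs no mice. No 2 libraries of a genotype were copies (chi-square per degree of freedom 22.3 to 140). Nothing else tells how the libraries of a genotype relate, so p-values measure the spread between these libraries.

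Low genes were removed by filterByExpr with a minimum count of 10 and a minimum total of 15. The rest were scaled with TMM factors and tested in limma-voom for genotype alone (R 4.3.3, edgeR 4.0.16, limma 3.58.1). Adjustment of p-values ran over all 15652 kept genes by the Benjamini-Hochberg method, and DEGs had an adjusted p below 0.05 and a change of more than 2-fold. "Called" means past the FDR alone. CPM were computed from the counts and TMM factors. Gene positions and lengths came from GENCODE M21, matched by symbol for 22708 of 24062 genes and for 87 of 87 members. The reference transcript was the one with the longest coding sequence, found for 86 of the members. Start windows came from RefSeq (GRCm38.p6). The steps were tested on simulated data.

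The members, the lists and the rule for naming genes were chosen with earlier results of these data known. Named were the stalk genes and Rpsa, Rpl5, Rpl11, Rps6, Rps19, Rps27a, the paralog pairs, the 5 kept members at either end of the fold changes, components without an Rp symbol, the targeted genes, and of each other list of translation or p53 genes up to 3 (the most abundant and the largest change in each direction). The X-linked members, members with a tract or at the ends of other rankings, and the other genes called in a list were named after their values were seen. Alternatives were DESeq2 1.42.0, edgeR's quasi-likelihood test, DESeq2 size factors, library size only, TMM without the members, sample quality weights, other filters and leaving out each library. Leaving out both libraries with muscle genes was added after seeing the data. Results for some genes are not reported here. Plots used Python 3.11.15 and matplotlib 3.10.9.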

Additional observations from a re-analysis of the deposited data

How the results depend on the processing

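The count of members called lower was 16, and 26 with DESeq2, 0 without both libraries with muscle genes (chosen after seeing the data) and between 0 and 5 when 1 library was left out. The 16 with 6 libraries fell to 11 with every gene with a count and rose to 22 with library size only. The direction of the members' median log2 fold change did not change: it ranged from -0.42 to -0.33 over the 8 alternatives with 6 libraries and from -0.40 to -0.27 without 1 library. No member was called higher, and none was a DEG, under any of these settings. Of the other lists, the median of snoRNA host genes was -0.21 with every gene with a count and between -0.57 and -0.24 without 1 library. That of the p53 arm was -0.62 with every gene with a count, -0.60 with library size only, -0.60 with sample quality weights, and between -0.57 and -0.46 without 1 library. With library size only the medians were -0.036 for initiation factors, -0.10 for biogenesis factors and 0.003 for mTORC1 genes. That of elongation factors, 0.03, was -0.05 with library size only and between -0.06 and 0.09 without 1 library. Without 1 library the medians were between 0.012 and 0.11 for initiation factors and between -0.035 and 0.049 for biogenesis factors. For mTORC1 genes, at 0.08 in the main fit, the median was between 0.023 and 0.151 without 1 library. The cause of these shifts was not tested.

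Of the 23 named other genes called, 1 was called without each library and 22 lost the call without at least 1, and 17 were called under every alternative with 6 libraries. No paired analysis was possible because the replicate numbers follow the order of the labels and mark no shared mouse, litter or batch. A share of counts without mitochondrial transcripts could not be computed, since the count files list none. Depth limits the members with few counts, such as Rps19bp1 and Rpl3l.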

Other observations

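Rows marked as ribosomal protein pseudogenes, which the rule removed, numbered 7 in the count files. Rps15a-ps6 was at 5.83, 5.36 and 12.1 CPM in Nf1fl/fl;DhhCre and 4.86, 6.17 and 5.15 CPM in double knockout. Rps19-ps3 was at 2.29, 2.32 and 4.36 CPM against 2.31, 5.67 and 2.51 CPM, and Rpl31-ps12 was between 0.594 and 1.83 CPM in all 6 libraries. Rplp2-ps1 and Rpl34-ps1 had 0 counts in every library.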
